A study of Rattus norvegicus with 4 samples.

Results

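In single nuclei of rat fat, 9 genes of fatty acid oxidation were followed: Ppara, Ehhadh, Cpt1a, Cpt1b, Pdk4, Crat, Acadm, Acadl and Hadha. They were taken by their gene symbols, and all 9 of 9 were present among the 32883 genes of the count tables. The tissues came from male rats of the Dahl salt-sensitive strain SS/HsdMcwiCrl, 16 weeks old, labelled as normal, housed at 22 °C under 12 hours of light and 12 hours of dark and fed a Teklad global diet with tap water. Both groups share all of these conditions: they are perivascular fat from around the thoracic aorta (taPVAT) and brown fat from below the shoulder blade (BAT), with 2 libraries each, numbered replicate 1 and 2. Nuclei from about 50 mg of snap-frozen tissue per library were sequenced with a droplet method that counts unique molecular identifiers (UMIs), 1 for each captured RNA molecule. Nothing in the labels says whether 1 or several rats went into a library, or whether libraries of the same number came from 1 rat, so p-values below measure only the spread between libraries.

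Long-chain fatty acids enter the mitochondrion as carnitine esters made by carnitine palmitoyltransferase 1, the step encoded by Cpt1a and Cpt1b, and are then shortened by the cycle of beta-oxidation; a second, peroxisomal cycle handles other fatty acids. PPAR alpha, the product of Ppara, is a nuclear receptor that binds fatty acids and pairs with RXR on direct repeats of the short motif AGGTCA, and Cpt1b, Ehhadh, Acadm and Pdk4 are among its textbook targets. Brown fat burns fatty acids to make heat through UCP1.

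No member differed between taPVAT and BAT adipocytes beyond the spread between libraries, while the replicates of each tissue differed from each other. Ehhadh was 6.18 times higher in replicate 1 than in replicate 2 of taPVAT and 26.0 times higher in BAT, Pdk4 and Crat were at least 2-fold apart in both tissues, and Cpt1b and Acadm were the members above 20 CPM (UMIs per 1000000) that differed least. Cpt1a stood alone among the 9 in being far lower in adipocytes than in the other large cell classes of the same libraries.

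The promoters of the 3 members that differed most between replicates, Ehhadh, Pdk4 and Crat, are shown. All 3 were higher in replicate 1 of both tissues. That direction is not particular to them, as 46.6% of the 5528 genes at 20 CPM or more on average shared it. The lines give the 250 bases before the start of each gene, 5′ to 3′ on the gene's own strand, from RefSeq's GRCr8 assembly (the counts were made on Rnor_6.0). Capitals mark a match to AGGTCANAGGTCA, the PPAR and RXR repeat of 2 copies of AGGTCA spaced by 1 base, on either strand with at most 2 mismatches in the copies.
Ehhadh, chr11:92746159-92746408, plus strand: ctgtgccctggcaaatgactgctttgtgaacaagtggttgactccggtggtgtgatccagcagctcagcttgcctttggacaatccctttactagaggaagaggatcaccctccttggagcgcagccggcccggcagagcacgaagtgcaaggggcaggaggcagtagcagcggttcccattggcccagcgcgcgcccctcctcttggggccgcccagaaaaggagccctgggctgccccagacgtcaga
Pdk4, chr4:34568330-34568579, minus strand: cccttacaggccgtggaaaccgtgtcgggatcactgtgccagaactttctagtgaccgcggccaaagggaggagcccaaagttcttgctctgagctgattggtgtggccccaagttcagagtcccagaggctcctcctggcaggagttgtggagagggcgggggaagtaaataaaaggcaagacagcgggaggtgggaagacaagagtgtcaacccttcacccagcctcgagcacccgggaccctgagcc
Crat, chr3:34087100-34087349, minus strand: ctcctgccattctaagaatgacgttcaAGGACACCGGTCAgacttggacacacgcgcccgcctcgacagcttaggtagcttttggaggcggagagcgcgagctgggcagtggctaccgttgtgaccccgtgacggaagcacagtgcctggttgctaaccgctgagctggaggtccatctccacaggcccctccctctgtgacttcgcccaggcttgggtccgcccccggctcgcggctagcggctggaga
The tables held a promoter for 7 of the 9 members. In the window of 250 bases before to 50 bases after the start, 1 of these 7 held a match, Crat, with AGGACACCGGTCA beginning 223 bases before the start. Of all 33469 promoters of that length, 1263 (3.77%) held one. These are letters in a window, not measured sites, and the windows without a match say nothing about binding elsewhere.

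After removal of nuclei under 500 genes and of predicted doublets, 106852 nuclei remained, 11954 to 38346 per library, and 79144 of them lay in 7 adipocyte clusters. The stated target was 10000 nuclei per library, and every library exceeded it. What the barcodes beyond the target hold was not tested. The adipocyte sums held 49975454 to 114453921 UMIs per library, and levels are given as CPM of these sums. The median adipocyte nucleus held 3188 and 4995 UMIs in taPVAT (replicate 1, then 2) and 4021 and 2835 in BAT, so depth was lower in replicate 1 than 2 of taPVAT and higher in replicate 1 than 2 of BAT. Median mitochondrial shares ran from 6.15% to 9.85%, highest in BAT replicate 2. The libraries stood apart by number: although the members and their pathway genes were left out of the clustering, 1 adipocyte cluster held 8896 and 7325 nuclei of the replicate 1 libraries of taPVAT and BAT and 232 and 311 of the replicate 2 libraries, and another held 230 and 88 against 3737 and 12590. Adipocyte clusters also split by tissue within a number. Of the replicate 1 libraries of taPVAT and BAT, 1 cluster held 1997 and 13663 nuclei and another 13610 and 414. Of the replicate 2 libraries, a further cluster held 3415 nuclei of taPVAT and 96 of BAT. Pairs of libraries shared 93 to 381 cell barcodes, at most 1.19% of the smaller library. Of the 12 adipocyte markers, 11 reached 20 CPM in at least 1 cluster, and Adipoq and Ucp1, the adipocyte and brown-fat reference genes, were present in every library at 228 to 375 and 456 to 1538 CPM. The 11 averaged 0.7745, 0.8179 and 0.6374 of their highest cluster level in adipocyte clusters filled mainly by replicate 1. In those filled mainly by replicate 2 they averaged 0.5987, 0.5734 and 0.5637, and in clusters named as other classes 0.4354 to 0.6079. The part of this difference in the ratios between replicates below was not tested.

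taPVAT was first compared with BAT, the contrast of a perivascular and a classical brown depot. Ppara was at 1587 and 1049 CPM in taPVAT replicates 1 and 2 and at 2591 and 1149 CPM in BAT replicates 1 and 2. BAT replicate 1 was the highest library and the taPVAT and BAT ranges overlapped. The log2 fold change of taPVAT over BAT was -0.46 ± 0.44 (SE, n = 2 libraries a tissue; edgeR quasi-likelihood, adjusted p = 0.99996).

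Of the carnitine genes, Cpt1b, the muscle-type transferase that also serves brown fat, was at 313 and 283 CPM in taPVAT and 363 and 276 CPM in BAT. These 4 values lay within 1.32-fold of each other, and the log2 fold change was -0.06 ± 0.26 (SE). Cpt1a, the liver-type transferase, was at 1.91 and 1.10 CPM in taPVAT and 1.17 and 1.12 CPM in BAT, from 55 to 196 UMIs per library. It was by far the most thinly counted member, and its log2 fold change was 0.43 ± 0.42 (SE). Crat, carnitine acetyltransferase, which moves acetyl groups onto carnitine, was at 102 and 49.5 CPM in taPVAT and 182 and 34.9 CPM in BAT. Both taPVAT libraries lay between those of BAT, with a log2 fold change of -0.47 ± 0.75 (SE).

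The mitochondrial beta-oxidation genes differed little between tissues. Acadm, the medium-chain acyl-CoA dehydrogenase, was at 492 and 384 CPM in taPVAT and 580 and 481 CPM in BAT. It was the member closest to separate ranges, with taPVAT replicate 1 just above BAT replicate 2, and its log2 fold change was -0.24 ± 0.27 (SE). Acadl, the long-chain dehydrogenase, was at 1194 and 786 CPM in taPVAT and 1475 and 752 CPM in BAT. Hadha, the alpha subunit of the trifunctional protein that carries out the later steps on long chains, was at 1000 and 708 CPM in taPVAT and 1108 and 616 CPM in BAT. In both genes BAT held the highest and the lowest library, and the log2 fold changes were -0.13 ± 0.40 for Acadl and 0.03 ± 0.36 for Hadha (SE).

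Ehhadh, the bifunctional enzyme of peroxisomal beta-oxidation, was at 90.4 and 14.6 CPM in taPVAT and 235 and 9.07 CPM in BAT. BAT again held both extremes, and the log2 fold change of -1.17 carried a standard error of 1.42, the widest of the 9. Pdk4, the kinase that turns off pyruvate dehydrogenase and so spares glucose when fat is burned, was at 717 and 272 CPM in taPVAT and 1010 and 208 CPM in BAT, with a log2 fold change of -0.26 ± 0.78 (SE).

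**Figure D1:**
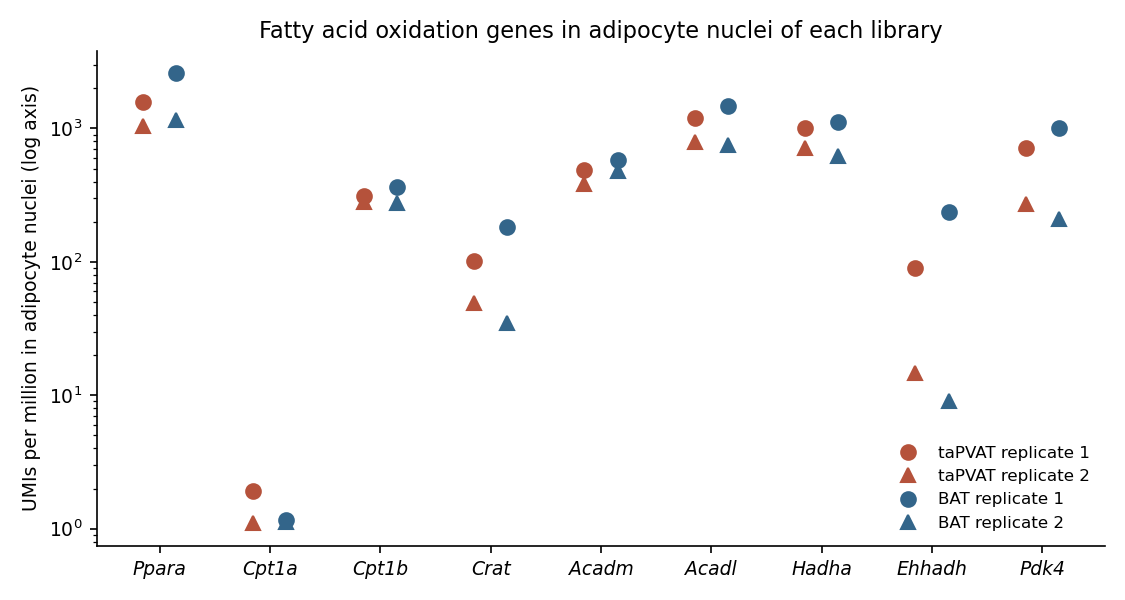
Level of each of the 9 genes in adipocyte nuclei, in CPM on a log axis; circles are replicate 1 and triangles replicate 2 of taPVAT (red) and BAT (blue). Ehhadh spreads from 9.07 to 235 CPM with both extremes in BAT, while the 4 values of Cpt1b nearly coincide.

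None of the 9 was called in adipocytes at an adjusted p under 0.05 (edgeR, Benjamini-Hochberg over 15533 genes), 0 of 9 fell under 0.05 without adjustment, and DESeq2 also called 0. The background was the same: 0% of genes (0 of 15533) were called by edgeR, with 329 at an unadjusted p under 0.05, and 58 were called by DESeq2. The median log2 fold change over the 9 was -0.24, beside 0.0047 over all genes tested. In no member did the 2 taPVAT libraries lie entirely above or below the 2 BAT libraries, whereas 20.3% of all genes tested were separated in that way; a single gene in 2 libraries against 2 cannot go below 0.333 in an exact two-sided permutation test. Summing all nuclei, with 0% of 16781 genes called (494 at an unadjusted p under 0.05, 106 called by DESeq2), again gave 0 of 9 members. The same held in fibroblast-like nuclei (0.0352% of 11352 genes, or 4, called; 564 at an unadjusted p under 0.05, 82 called by DESeq2) and in vascular endothelial-like nuclei (0% of 12286 genes, 207 at an unadjusted p under 0.05, 8 called by DESeq2).

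The tissue contrast of Ehhadh hung on single BAT libraries. Without BAT replicate 1 it was called higher in taPVAT adipocytes (log2 2.45 ± 0.51, adjusted p = 0.00086 by edgeR), and without BAT replicate 2 it was called lower (log2 -2.12 ± 0.43, adjusted p = 0.00038 by edgeR). In these fits 0.731% and 0.657% of genes were called, and the lone BAT library is assumed to vary as the model expects. That spread is borrowed across genes, and both standard errors are smaller than the log2 difference of 2.63 between the 2 taPVAT libraries of Ehhadh itself, so these calls show the dependence on single libraries and are not read as a tissue difference. Leaving out BAT replicate 2 also called Ehhadh lower in all nuclei (log2 -2.13, with 0.543% of genes called) and in fibroblast-like nuclei (log2 -2.001, 0.788%). Leaving out taPVAT replicate 1 called Ppara lower in taPVAT fibroblast-like nuclei (log2 -2.20, adjusted p = 0.0442 by edgeR, 0.837% of genes called). In the taPVAT replicate 2 fibroblast-like nuclei on which that call rests, the adipocyte markers stood at a median of 45.9% of their adipocyte level (21.2% to 101%), beside 66.1% and 75.3% in those of BAT replicates 1 and 2, and their part in the call was not tested.

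**Figure D2:**
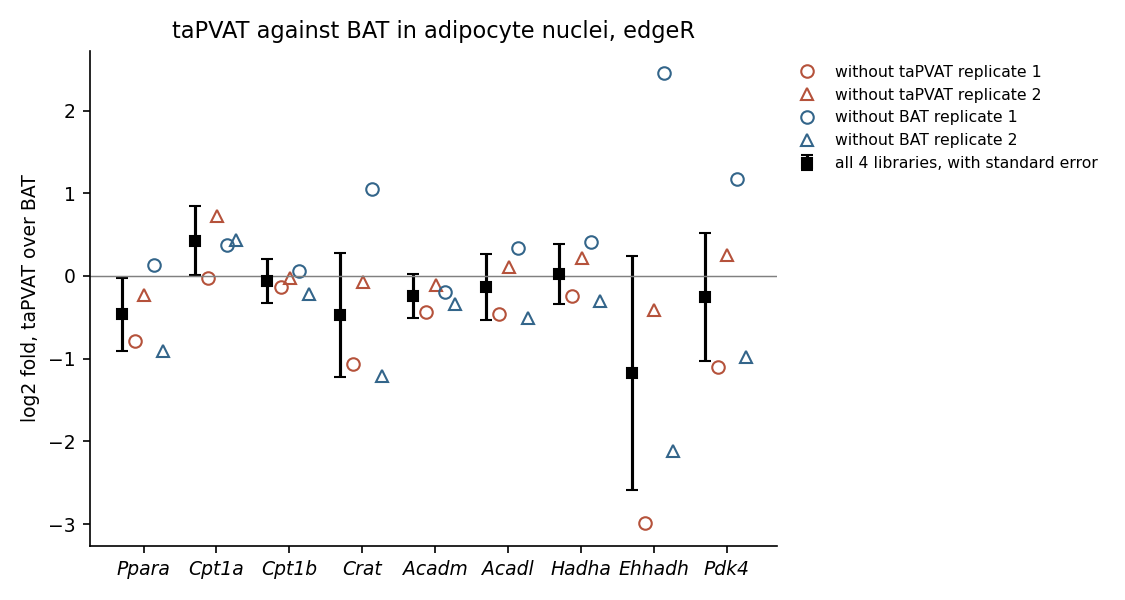
log2 fold change of taPVAT over BAT in adipocyte nuclei by edgeR for each of the 9 genes; black squares use all 4 libraries with their standard error, and open symbols leave out the library named. Ehhadh moves from -2.99 to 2.45 with the library left out, and Acadm stays below 0 throughout.

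The second comparison set replicate 1 against replicate 2 within each tissue. It is 1 library against 1, so there is no test, and the 95% intervals below cover counting error only. All 8 members at 20 CPM or more on average over the 4 libraries were higher in replicate 1 in both tissues. That direction was shared by 46.6% of the 5528 genes at that level. Ehhadh was at 14.6 and 9.07 CPM in replicate 2 of taPVAT and BAT. It reached that average only through the replicate 1 libraries, in which it is then counted as higher. Cpt1a, at 1.10 to 1.91 CPM, was not counted among the 8. A ratio above 1.5 was reached by 5 of 8 in taPVAT, against a background of 14.8% of 5528 genes at 20 CPM or more, and by 6 of 8 in BAT, against 24.5%. In both tissues together 5 of 8 passed (Ppara, Ehhadh, Pdk4, Crat and Acadl), against 12.8% of all genes, and 0 of 8 were lower by that much, against 7.53%. The median log2 ratio over the 8 was 0.60 in taPVAT and 1.07 in BAT, beside 0.03 and 0.14 over the 5528 genes. The members were chosen with earlier results of these data known, so these counts and medians are descriptions and not tests of an excess.

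Ehhadh led. Its ratio of replicate 1 to 2 was 6.18 (5.73 to 6.67) in taPVAT and 26.0 (23.9 to 28.3) in BAT, the 3rd largest in taPVAT and the largest in BAT of the 5528 genes. The low end rests on 731 UMIs in taPVAT replicate 2 and 552 in BAT replicate 2. Ehhadh is among the 5528 genes only through its replicate 1 levels, so its ranks are descriptions. In BAT replicate 2 the 5 large classes other than adipocytes held Ehhadh at 75.0% to 88.9% of its adipocyte level, and the part of RNA shared between nuclei in the ratios was not tested. The size of the ratio depended on which nuclei were summed: it was 4.04 (2.16 to 8.53) in taPVAT with nuclei gated one by one, and 11.5 (9.02 to 14.8) in BAT in the single adipocyte cluster well filled in all libraries. Pdk4 followed with ratios of 2.64 (2.59 to 2.69) and 4.86 (4.77 to 4.95), and Crat with 2.05 (1.96 to 2.15) and 5.20 (4.98 to 5.44). By the smaller of the ratios in the 2 tissues, Ehhadh ranked 2, Pdk4 45 and Crat 152 of 5528.

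The remaining members differed less. Ppara had ratios of 1.51 (1.4975 to 1.5273) in taPVAT and 2.26 (2.24 to 2.27) in BAT, and Acadl 1.52 (1.5016 to 1.5362) and 1.96 (1.94 to 1.98); in taPVAT both stood just past the limit of 1.5, and the lower bound of Ppara was under it. Hadha, at 1.41 in taPVAT and 1.80 in BAT, missed it in taPVAT. Acadm, at 1.28 and 1.21, and Cpt1b, at 1.11 and 1.32, stayed under it in both tissues. For comparison, the ratios of Adipoq were 1.37 and 1.39 and those of Ucp1 2.06 and 2.33. Leaving mitochondrial genes out of the totals, requiring 1000 genes a nucleus, keeping doublets and gating nuclei one by one each kept the same 5 members past 1.5-fold. The gate left only 210 to 2075 nuclei per library, 210 of them in taPVAT replicate 2. With it the Acadl ratio in taPVAT was 1.59 (1.4351 to 1.7552), an interval that includes 1.5. The limit of 5% mitochondrial UMIs left 1416 nuclei in BAT replicate 2, or 7.65% of its adipocytes. With at most 5% mitochondrial UMIs Acadl dropped to 1.47 in taPVAT, and in nuclei above 5% Ppara dropped to 1.4954 in taPVAT, so 4 of 8 passed in each. Median depth was lower in replicate 1 of taPVAT and higher in replicate 1 of BAT, and its part in the ratios was not tested. Most adipocyte clusters were filled mainly by libraries of 1 number, and values within the cluster that all 4 libraries filled are given further on.

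**Figure D3:**
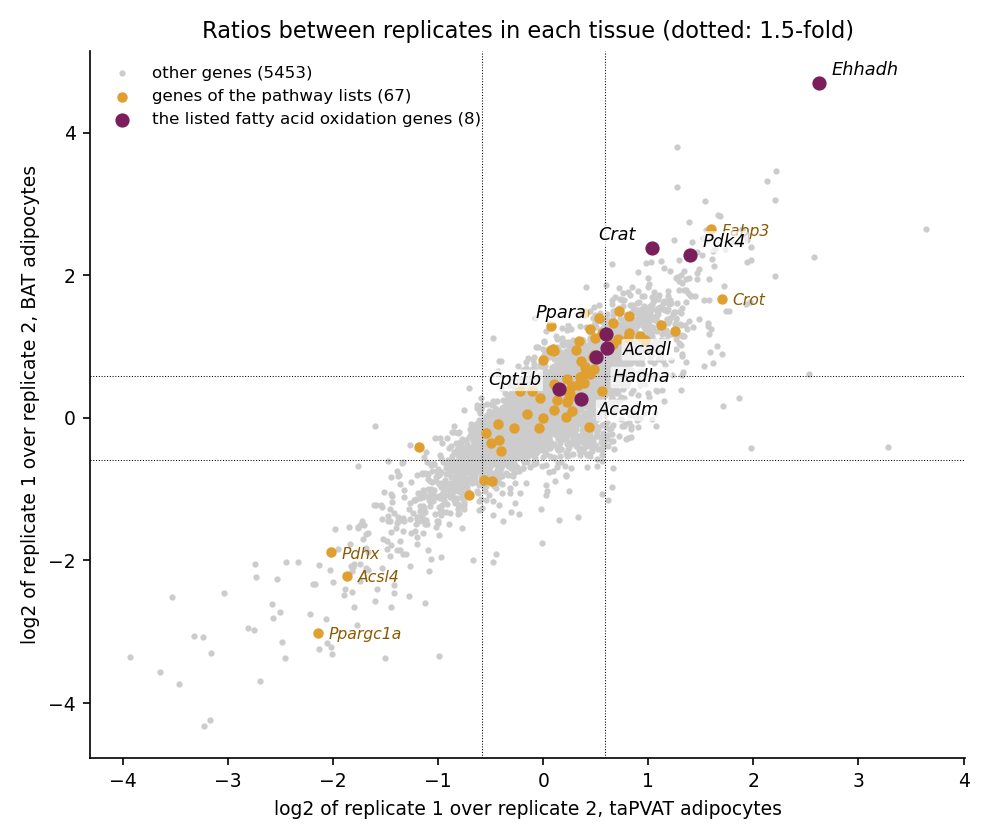
log2 of replicate 1 over replicate 2 in taPVAT adipocytes (horizontal) and BAT adipocytes (vertical) for the 5528 genes at 20 CPM or more on average. Dotted lines are at 1.5-fold. Purple points are the 8 members at that level and orange points 67 genes of the pathway lists. Ehhadh lies at 2.63 and 4.70, and Ppargc1a, Acsl4 and Pdhx lie at the opposite end.

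The share of adipocyte nuclei with at least 1 UMI shows the same order at equal depth. With each nucleus thinned to 2000 UMIs, Ehhadh was detected in 15.007% and 2.49% of nuclei in the first and second taPVAT libraries and in 31.5% and 1.77% in those of BAT (unthinned, 23.1%, 6.69%, 49.4% and 2.78%). Both replicate 1 libraries stood above both replicate 2 libraries. Thinning left out 5636, 307, 1975 and 3899 shallower nuclei in that order of libraries, of 27179, 9189, 24263 and 18513. Pdk4 was detected in 64.4%, 30.7%, 74.2% and 27.4% of nuclei, and Crat in 18.0%, 9.18%, 29.4% and 6.36%, again in that order and at 2000 UMIs. Detection of Acadl was 76.4% to 93.3%, of Ppara 74.7% to 94.8% and of Hadha 69.6% to 85.8%, and in each of the 3 the replicate 2 libraries were the lower. Cpt1a was found in 0.19% to 0.40% of thinned adipocyte nuclei, too few to read a difference between libraries from, and in 1.11% to 5.80% of T or NK lymphocyte-like nuclei (2 to 9 nuclei a library).

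T or NK lymphocyte-like nuclei, which should lack the adipocyte gene Adipoq, held it in 30.6% to 46.7% of nuclei at 2000 UMIs, beside 35.7% to 51.3% of adipocytes. At that depth Ehhadh was found in 11.8% and 1.45% of them in taPVAT replicates 1 and 2 and in 25.4% and 1.67% in BAT replicates 1 and 2. Before thinning, lymphocytes had median depths of 1878 to 2504 UMIs, below the 2835 to 4995 of adipocytes. Thinning left out 313 of 670 and 74 of 143 lymphocytes in taPVAT and 272 of 512 and 145 of 325 in BAT, replicate 1 first, and those that stayed had held 4263 to 5590 UMIs at the median, beside 3194 to 5076 in the adipocytes that stayed. The lymphocyte shares of replicate 2 rest on 1 of 69 nuclei in taPVAT and 3 of 180 in BAT, with Wilson 95% intervals of 0.256% to 7.76% and 0.568% to 4.78%, so that whether adipocytes stood above lymphocytes was not detectable there. Ppara was likewise found in 78.2% and 55.1% of taPVAT lymphocytes and 87.1% and 69.4% of BAT lymphocytes, replicate 1 first.

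**Figure D4:**
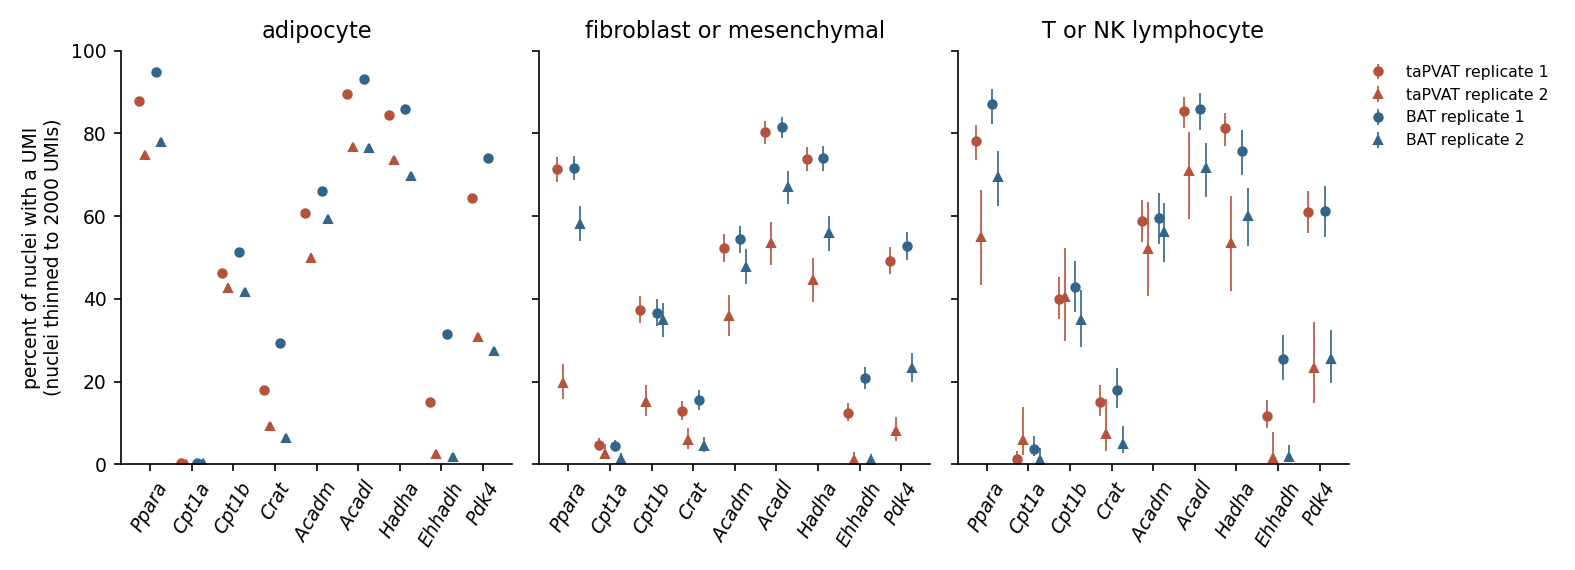
Percent of nuclei with at least 1 UMI of each gene after thinning every nucleus to 2000 UMIs, in 3 cell classes, with Wilson 95% intervals; circles are replicate 1, triangles replicate 2, red taPVAT and blue BAT. Ehhadh reaches 31.5% in BAT replicate 1 adipocytes and 25.4% in lymphocytes of that library, while Cpt1a is higher in fibroblast-like nuclei than in adipocytes.

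Across cell classes, levels were read against that shared RNA. In the 5 large classes beside adipocytes (fibroblast-like, vascular endothelial-like, mural-like, myeloid-like and T or NK lymphocyte-like), 20 library sums in all, the median of the 11 detected adipocyte markers was 45.9% to 84.9% of its adipocyte level, and Adipoq alone was at 78.0% to 112%. Ppara lay at 24.6% to 79.3% of its adipocyte level in these 20 sums, Pdk4 at 23.7% to 92.3%, Crat at 51.7% to 87.9% and Cpt1b at 39.8% to 85.7%. Acadl was at 58.1% to 90.8%, Hadha at 48.5% to 88.1%, Acadm at 70.3% to 93.5% and Ehhadh at 26.9% to 99.3%. All 8 were below the adipocyte level in every one of the 20 sums, and the share of all genes that were so was not counted. With the smaller classes added, 32 sums in all, Ehhadh was above its adipocyte level in 4, at up to 164%. Acadm was above it in 3, Cpt1b and Acadl in 2 each, Crat and Hadha in 1 each, and Ppara and Pdk4 in 0. The lowest values of Ppara and Pdk4 came from fibroblast-like nuclei of taPVAT replicate 2, where the adipocyte markers were also lowest, at 45.9%. How much of these levels is the classes' own expression was not tested.

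Cpt1a ran the other way. It was at 1.10 to 1.91 CPM in adipocytes and at 5.47 to 23.8 CPM in fibroblast-like nuclei, 5.88 to 19.2 CPM in vascular endothelial-like nuclei and 13.2 to 30.2 CPM in myeloid-like nuclei. In the 5 large classes it was 4.90 to 27.4 times its adipocyte level, above it in 20 of 20 library sums, in which the median adipocyte marker was at most at 84.9%. The counts behind these levels are small, 6 to 164 UMIs per sum. Schwann-like nuclei, with 15.7 to 26.8 CPM from 4 to 22 UMIs, were also above the adipocyte level in all 4 libraries. Classes were built from clusters, so these are descriptions and not tests. In RefSeq's annotation Cpt1a overlaps another gene model, as do Ppara (Cdpf1), Acadm and Acadl, and whether the counting used strand is not given in the sources used here.

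**Figure D5:**
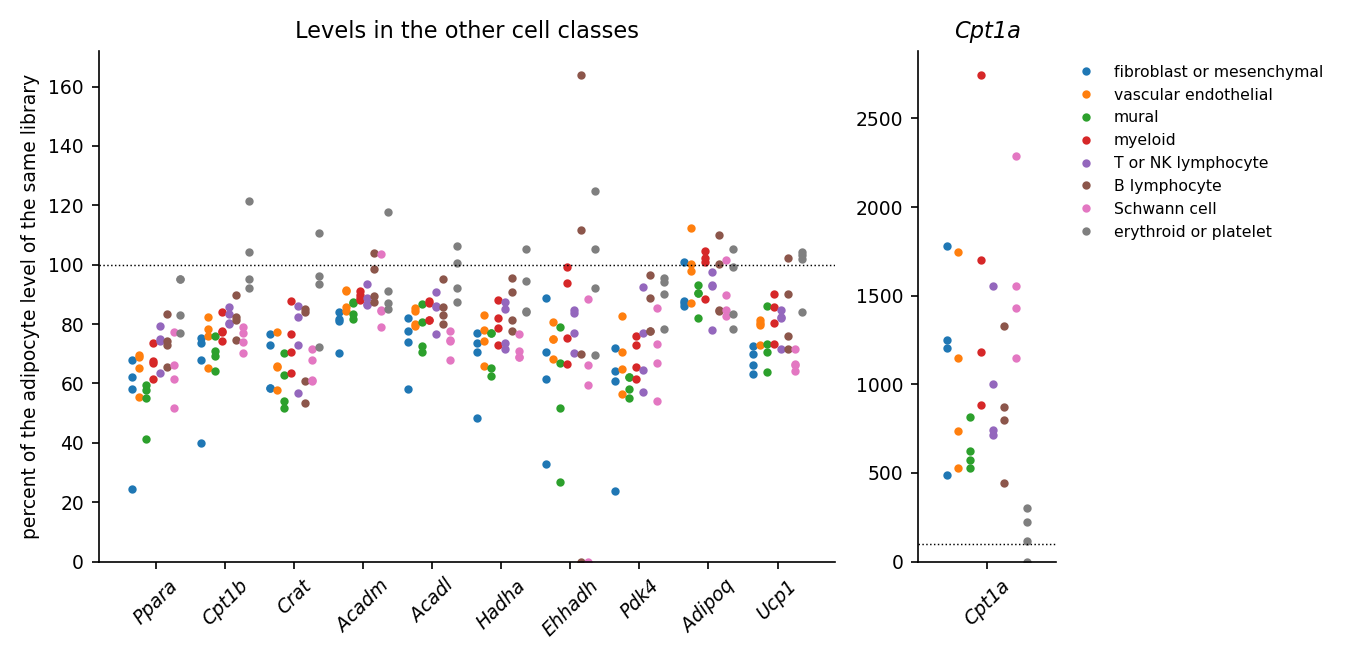
Level of each gene in 8 cell classes as a percent of its level in adipocytes of the same library, 1 point per library, with Adipoq and Ucp1 for reference and Cpt1a on its own axis; the dotted line is the adipocyte level. Most points of the other members lie between 40% and 100%, and Cpt1a reaches 2745% in myeloid-like nuclei of taPVAT replicate 2.

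Within adipocytes, only 1 cluster had at least 500 nuclei in each of the 4 libraries (739 to 2767), and it was led by Kcnip1, Clmp and Kcnn3. In it the Schwann cell markers averaged 0.2394 of their highest level in any cluster, under the limit of 0.25 for naming adipocytes. They averaged 0.1469 to 0.1548 in the other adipocyte clusters. Compared with the other adipocytes of the same library, nuclei of the shared cluster held 0.37 to 0.58 times the Ppara, 0.36 to 0.57 times the Pdk4 and 0.50 to 0.61 times the Cpt1b, lower in 4 of 4 libraries in each case. Acadm, Acadl and Hadha were also lower there in all 4, at 0.60 to 0.75 times, and Crat was at 0.65 to 0.84 times. The share of all genes lower there in 4 of 4 libraries was not counted, so whether this is unusual is not known. Ucp1 was lower there too, at 0.48 to 0.58 times, while Adipoq was 1.56 to 2.82 times higher. Ehhadh was lower in 3 of 4 libraries and 1.22 times higher in BAT replicate 2, and Cpt1a, from 5 to 27 UMIs, was 1.68 to 2.34 times higher in 3 of 4 and at 0.69 times in taPVAT replicate 1. The differences between replicates held inside this cluster, in which 6 of 8 members passed 1.5-fold in both tissues against 6.35% of genes. Ehhadh in it was at 76.8 and 11.8 CPM in taPVAT replicates 1 and 2 and at 124 and 10.8 CPM in BAT replicates 1 and 2, and Pdk4 was 4.22 and 4.76 times and Ppara 2.35 and 2.10 times higher in replicate 1. RNA shared between nuclei can carry ratios of a whole library into any cluster, and its part in these ratios was not tested. The count of 6 of 8 is again a description of members chosen with earlier results known.

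Other genes of the pathway were described from 6 lists holding 87 genes of the count tables, of which 85 were tested in adipocytes. None of the 85 was called between taPVAT and BAT (edgeR, 4 with an unadjusted p under 0.05, beside 329 of all 15533 genes), and their median log2 fold change was 0.05. Acsl5, which activates fatty acids to acyl-CoA, had the smallest p: it was at 1244 and 1170 CPM in taPVAT and 529 and 270 CPM in BAT (log2 1.64 ± 0.37, unadjusted p = 0.0052, adjusted p = 0.99996 by edgeR). Acaca, whose product malonyl-CoA blocks CPT1, was at 3778 and 3038 CPM in taPVAT and 2146 and 1109 CPM in BAT (log2 1.11 ± 0.38). In both genes the taPVAT libraries were above both BAT libraries, and the tissues were separated in this way, in either direction, in 23 of the 85 list genes and in 20.3% of all genes. The other genes with an unadjusted p under 0.05 were Bdh1, a ketone body enzyme, and Vnn1, both among the further PPAR alpha targets and ketone genes, under 20 CPM and named here after their values were seen. Bdh1 was at 2.00 and 0.80 CPM in taPVAT and 0.44 and 0.38 CPM in BAT (log2 1.81 ± 0.54), and Vnn1 at 0.51 and 0.24 CPM in taPVAT and 0.07 and 0.13 CPM in BAT (log2 1.99 ± 0.64). These levels rest on 8 to 206 UMIs per library. Among genes at 20 CPM or more, the log2 fold changes with the smallest unadjusted p of each other list were 0.47 for Rxra and -0.24 for Klf15 among regulators, 0.74 for Acad11 and -0.46 for Etfb in mitochondrial oxidation, and -0.38 for Abcd2 and -0.35 for Acox3 in the peroxisome. They were 0.60 for Pdk2 and 0.33 for Pdk1, sister kinases of Pdk4, and -0.41 for Angptl4 and -0.39 for Oxct1 among further PPAR alpha targets and ketone genes.

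Between replicates, 13 of the 67 list genes at 20 CPM or more were over 1.5 times higher in replicate 1 in both tissues and 4 were lower by as much, beside the 12.8% and 7.53% of all genes. Mitochondrial beta-oxidation gave 5 of 14 higher and 0 lower. Hadhb, the beta subunit that partners Hadha and lies next to it in the genome, was at 825 and 380 CPM in taPVAT and 892 and 362 CPM in BAT, and Acaa2, the last thiolase of the cycle, was 1.95 and 2.12 times higher in replicate 1. Peroxisomal oxidation gave 4 of 11 higher and 0 lower, among them Ech1 at 2.39 and 2.33 times and Cat, catalase, at 1.76 and 2.69 times. Of fatty acid activation and the carnitine shuttle, 2 of 10 were higher, Crot, which makes carnitine esters in the peroxisome, at 3.24 and 3.18 times. The other targets of PPAR alpha gave 1 of 8, Fabp3, a fatty acid carrier, at 374 and 124 CPM in taPVAT and 354 and 56.7 CPM in BAT.

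In the opposite direction stood 4 list genes, Ppargc1a, Pparg, Acsl4 and Pdhx. Ppargc1a, the coactivator that drives mitochondrial genes together with PPAR receptors, was at 3181 and 14101 CPM in taPVAT replicates 1 and 2 and at 1523 and 12275 CPM in BAT replicates 1 and 2. It was thus 4.43 and 8.06 times higher in the replicate 2 libraries, where Ppara and Ehhadh were low. Acsl4 was 3.64 and 4.65 times higher in replicate 2, and Pdhx, a structural part of the pyruvate dehydrogenase complex that Pdk4 acts on, was 4.05 and 3.70 times higher. Among regulators 1 of 14 was higher in replicate 1, Rxrg, a partner of PPAR receptors, at 1.65 and 2.83 times, and 2 were lower, Ppargc1a and Pparg, the latter at 1.63 and 2.11 times higher in replicate 2 and named here after its values were seen. The pyruvate dehydrogenase list gave 0 of 10 higher and 1 lower; Mpc2, part of the mitochondrial pyruvate carrier, was 1.40 and 1.86 times higher in replicate 2. Ucp3, a relative of Ucp1, was 1.47 and 2.28 times higher in replicate 1.

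The patterns of the members over 36 sums (9 cell classes in each of 4 libraries) were compared with those of 5497 other genes by Pearson's r of log2(CPM + 1). The genes compared were those at 20 CPM or more on average in adipocytes. The values are a description over sums that share libraries, depth and adipocyte RNA. The most alike were Smoc1 for Ppara (r = 0.98), Peg3 for Ehhadh (0.95), Vgll4 for Cpt1b (0.96), Otop1 for Pdk4 (0.97), Atxn2 for Crat (0.96), Ucp1 for Acadm (0.90), Hadh for Acadl (0.98) and Dhx9 for Hadha (0.97). For Cpt1a the highest was Stxbp5 at 0.82. Genes as low in adipocytes as Cpt1a were not compared, so its lower r cannot be set against those of the other members. Among the members themselves r was 0.67 to 0.97 for every pair without Cpt1a and -0.46 to -0.01 for the pairs with it.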

How the data were processed

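Single-nucleus RNA was counted in 2 taPVAT and 2 BAT libraries. The authors deposited raw UMI counts per gene and barcode, made with Cell Ranger 7.1.0 per the file headers and on Rnor_6.0 per the submitters' processing notes; whether intronic or antisense reads counted is not given in the sources used here. Libraries held 63654436 to 158140959 UMIs, which limits the precision of genes near 1 CPM such as Cpt1a.

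Nuclei with under 500 genes were left out. Scrublet's own threshold called 0 doublets in BAT replicate 1, so each library lost its highest-scoring nuclei at 0.314 of its expected share (3.10% to 10.8%). In taPVAT replicate 1 this removed 4633 nuclei, as many as Scrublet called, and in BAT replicate 1 it removed 2994. In replicate 2 it removed 382 of taPVAT and 1800 of BAT, where Scrublet had called 816 and 4103. Clusters (scanpy 1.11.5, 3000 variable genes without the members and pathway lists, 30 components, Leiden resolution 1) were named from marker lists; the thresholds for naming were set on these data. UMIs were summed per library and class and tested with edgeR 4.0.16 (quasi-likelihood, TMM, filterByExpr, R 4.3.3), with DESeq2 1.42.0 as an alternative. The fit was also run on simulated sums with the same spread set for every gene. That run does not show how the fit behaves at the spread between these libraries. Standard errors of edgeR's log2 fold changes were taken from its F statistic. Intervals of ratios and shares are 95% and cover counting error only. Each pathway list is named by the 2 genes with the smallest unadjusted p between tissues and the 2 with the largest ratio between replicates in both tissues, at 20 CPM or more; for each member, the gene with the most similar pattern is named. Other normalization, filters, doublet and mitochondrial limits, a gate on single nuclei, a replicate block and leaving out each library were tried. The members and lists were chosen with earlier results of these data known.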

Additional observations from a re-analysis of the deposited data

Results flagged for a closer look

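In 6 of the 9 members the adipocyte ratio of taPVAT to BAT was below 1 in replicate 1 and above 1 in replicate 2. These members were marked because their ratios lay on opposite sides of 1 with counting intervals that excluded 1. The share of all genes that did so was not counted, so whether 6 of 9 is unusual is not known. Each ratio is 1 library over 1, and the difference between the ratios of a gene was not tested. Ehhadh had a ratio of 0.384 in replicate 1 and 1.61 in replicate 2, the widest gap. Crat followed with 0.559 and 1.42 and Pdk4 with 0.71 and 1.31. Acadl had 0.809 and 1.05, Hadha 0.902 and 1.15, and Cpt1b 0.863 and 1.03. Ppara (0.613 and 0.913) and Acadm (0.848 and 0.797) were lower in taPVAT in both numbers. Cpt1a turned the other way, at 1.63 and 0.985, with a counting interval of the latter of 0.677 to 1.43 that includes 1. The labels do not say that libraries of the same number belong together.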

How the results depend on the processing

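The number of members called between taPVAT and BAT stayed at 0 under RLE scaling, DESeq2, no filter on low counts and, in adipocytes, under 1000 genes per nucleus, doublets kept, at most 5% mitochondrial UMIs and the gate on single nuclei; leaving out 1 library gave 0 to 1 in adipocytes, all nuclei and fibroblast-like nuclei and 0 in vascular endothelial-like nuclei. Without 1 library the log2 fold change of taPVAT over BAT ran from -0.908 to 0.137 for Ppara, -2.988 to 2.451 for Ehhadh, -0.021 to 0.729 for Cpt1a, -0.212 to 0.059 for Cpt1b, -1.101 to 1.178 for Pdk4, -1.205 to 1.047 for Crat, -0.43 to -0.114 for Acadm, -0.509 to 0.336 for Acadl and -0.308 to 0.411 for Hadha. Hadha, near 0 in the first place, also changed sign under DESeq2 (-0.005) and the gate (-0.106). The cause of these changes was not tested. Of 108 alternative log2 values, 94 kept their direction and side of the threshold.

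Samples of the same number deviated together (r = 0.865 over 5528 genes, 2 pairs), but the labels do not tie them. With a replicate block 0 of 9 members were called in adipocytes, all nuclei, fibroblast-like and vascular endothelial-like nuclei. In adipocytes Ppara had -0.38 (SE 0.19, adjusted p = 0.56 by edgeR) and Ehhadh -0.35. An unadjusted p under 0.05 by the blocked edgeR fit was reached by 0 members in adipocytes and 1 in all nuclei (Ppara). In fibroblast-like nuclei 3 reached it (Pdk4, Ppara and Ehhadh), and in vascular endothelial-like nuclei 4 (Cpt1a, Crat, Ppara and Ehhadh). Of all genes 1509 of 15533, 1774 of 16781, 1035 of 11352 and 810 of 12286 did so, in that order. Of the 85 pathway genes tested in adipocytes the block called 3, all higher in taPVAT (Acsl5, Acaca and Bdh1). Over all genes the block raised the calls from 0 to 307 in adipocytes, 0 to 423 in all nuclei, 4 to 153 in fibroblast-like and 0 to 82 in vascular endothelial-like nuclei. Calls also moved with no filter (13, 61, 229 and 63 in that order), with DESeq2 (58, 106, 82 and 8) and on leaving out 1 library (0 to 114, 0 to 95, 95 to 111 and 0 to 11).

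Members past 1.5-fold between replicates were 5, and 3 past a fold of 2, against 3.27% of genes; no library can be left out of 1 against 1. Thinned to 1000 UMIs, mean shares in taPVAT and BAT were 62.3% and 71.2% for Ppara, 26.1% and 27.8% for Cpt1b, 35.01% and 40.6% for Acadm, 60.97% and 63.97% for Acadl and 55.6% and 55.0% for Hadha, with Crat at 6.67% in taPVAT and Cpt1a at 0.117% in BAT. Not thinned, a setting chosen after seeing the data like the nuclei above 5% mitochondrial UMIs and the single shared cluster, they were 0.645% and 0.44% for Cpt1a, 67.6% and 64.2% for Cpt1b and 76.2% and 78.1% for Acadm, and in taPVAT 25.4% for Crat, 93.9% for Acadl and 91.2% for Hadha.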

Other observations

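The ratio of replicate 1 to replicate 2 was also read in the 8 usable classes other than adipocytes, with 1 library on each side and no test. Ppara, Cpt1b, Pdk4, Crat, Acadm, Acadl and Hadha were higher in replicate 1 in both tissues in 8 of 8 classes, as were 9.79% of the 5528 genes at 20 CPM or more in adipocytes. A gene at 0 UMIs in any replicate 2 sum was left out of the 9.79%, which lowers that share for genes near 20 CPM. The members named averaged 91.9 to 1594 CPM in adipocytes, so the share is not a like comparison. Some of the taPVAT ratios of these members had counting intervals that included 1. In Schwann-like nuclei these were Ppara (0.866 to 1.19), Cpt1b (0.773 to 1.46), Crat (0.961 to 4.47) and Acadm (0.833 to 1.31). Pdk4 ranged from 1.66 to 7.14 in taPVAT and 3.40 to 5.93 in BAT, Crat from 1.74 to 2.79 and 3.44 to 6.94, and Ppara from 1.01 to 3.82 and 1.80 to 2.79. Ehhadh was higher in 6 of 8, at 5.21 to 15.3 times in taPVAT and 17.0 to 34.5 times in BAT. In the other 2, the B lymphocyte-like and Schwann-like nuclei, taPVAT replicate 2 was at 0 UMIs. Their BAT ratios were 11.1 (4.20 to 41.5) and 17.4 (7.77 to 48.5), from 4 and 6 UMIs in BAT replicate 2. Cpt1a was higher in 4 of 8. Adipocyte RNA was present in all of these classes, and its part in their ratios was not tested.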
